A study of Rattus norvegicus with 40 samples.

Results

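The whole intestine of rat embryos at gestational day 20 (E20), shortly before birth, was compared with that at day 16 (E16), on 10 arrays at each age. All 20826 probe sets that name a single gene symbol were members of the comparison, of 31099 in the deposited table, and they represent 14217 genes. The labels name no treatment or engineered allele in either group. Both were Wistar embryos taken by caesarean section from timed matings, and RNA of whole intestine was labelled from 1 µg on Affymetrix arrays. As far as the labels say the groups differed in gestational day alone, and the title frames the question as how the organ is readied for birth. The labels tell of tissue frozen from several siblings while the design text counts 10 embryos an age, so pooling and litter are not settled. The p-values therefore reflect the scatter among these arrays, part of which may be technical, and litter and age cannot be told apart if each age was 1 litter.

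The late fetal rat gut turns from a tube lined by a thick, little-differentiated epithelium into one with villi. The villus epithelium carries absorptive enterocytes with a brush border of microvilli, mucus-secreting goblet cells and hormone-secreting enteroendocrine cells, while smooth muscle, enteric neurons, fibroblasts and vessels lie beneath it. Morphogen signals pass between the epithelium and this mesenchyme, and Hox genes mark position along the tube. A newborn rat takes up milk whose proteins are in large part taken into enterocytes and broken down in their lysosomes. In bulk RNA a larger share of a cell type and more RNA per cell cannot be told apart, which holds for each result that follows.

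A gene is called higher or lower here when the limma test gave a Benjamini-Hochberg adjusted p under 0.05 and the difference, E20 minus E16, was at least 1 on the log2 scale (2-fold). By this rule 1259 of 14217 genes (8.86%) were higher at E20 and 881 (6.20%) were lower. Over member probe sets these counts were 1541 (7.40%) and 1238 (5.94%). The gene shares of 8.86% and 6.20% are the ones to set beside each list count below. At 4-fold or more the balance was more one-sided, with 566 genes higher and 117 lower, and at 16-fold or more it was 167 against 7. The arrays of the ages did not overlap in 5344 genes (37.6%). Among the 2140 called genes they did not overlap in 2072, so a lack of overlap adds little to a call. The median difference of all genes was -0.086, and at the adjusted p alone, whatever the size, 4128 genes were higher and 5859 lower, most of them by less than 2-fold.

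**Figure D1:**
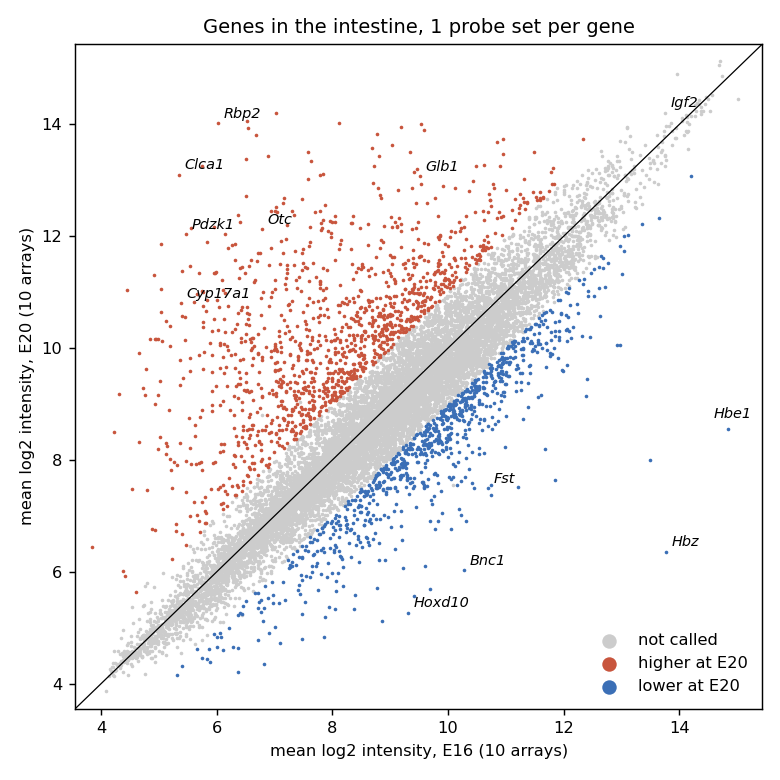
Mean log2 intensity of each of 14217 genes at E16 (horizontal) and at E20 (vertical), 10 arrays each; red points are called higher at E20, blue points lower, grey points neither, and the line marks equal levels. The 1259 red genes reach farther from the line than the 881 blue ones, and many of them lie among the dimmest genes at E16.

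The first principal component of the intestine arrays held 87.8% of the variance and separated the ages. Array medians were 241 to 264 intensity units at E16 and 235 to 248 at E20. Array E16 replicate 8 stood apart: its median correlation with its group was 0.9636, against 0.9842 or more in the other E16 arrays, and its actin probe sets at the 5' end of the transcript were 2.49 log2 units dimmer than those at the 3' end. That actin difference was -1.16 to -0.93 in the other E16 arrays and -2.06 to -1.32 at E20. The 12 probe sets for bacterial transcripts that are added to samples as labelling controls were lower at E20 without overlap (8.59 to 9.49 at E16, 7.15 to 8.34 at E20), whereas the hybridization controls differed by 0.14. The part of these measures in the gene differences was not tested. As a check of the intestinal label, markers of other organs were measured: the list mean at E16 and E20 was 6.95 to 7.30 and 7.17 to 7.47 for lung, 6.80 to 7.17 and 6.60 to 7.03 for stomach and oesophagus, 6.50 to 8.80 and 7.89 to 9.12 for liver, and 7.88 to 8.38 and 6.80 to 7.09 for cartilage.

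Genes of fat handling and of the apical membrane were among the largest rises, with a goblet cell gene beside them. Rbp2, the cytoplasmic protein that binds retinol in enterocytes, had its lowest, median and highest log2 intensity at 5.66, 5.96 and 6.41 at E16 and 13.55, 14.09 and 14.30 at E20 (log2 difference 8.01, SE 0.108, limma adjusted p = 4.41e-23), a 257-fold difference. Clca1, a secreted protein of goblet cells and a member of the goblet cell list, had the next largest rise, at 4.36, 5.37 and 6.45 at E16 and 12.72, 13.13 and 13.37 at E20 (log2 difference 7.75, SE 0.171, limma adjusted p = 4.45e-20), a 215-fold difference. Pdzk1, a scaffold that holds transporters in the apical membrane, lay at 5.15, 5.36 and 6.21 at E16 and 11.83, 12.09 and 12.15 at E20 (log2 difference 6.58, SE 0.112, limma adjusted p = 6.47e-22). Apoc2, an apolipoprotein that activates lipoprotein lipase, rose by 7.13, and Fabp1, a fatty acid binding protein of liver and gut, by 6.55 on the log2 scale. The arrays of the ages did not overlap in Rbp2, Clca1, Pdzk1, Apoc2 or Fabp1. Only genes without overlap could enter the 15 largest rises and the 15 largest falls, so this was set by the choice. The same holds for Guca2a, Hoxd10, Hoxa10, Hbz and Bnc1 further on. Other genes among the 15 largest rises were Prap1 (7.40), Gpd1, a glycerol phosphate dehydrogenase (6.82), Lrrc19 (6.59) and Hsd17b6, an oxidoreductase of sterols and retinoids (6.39).

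The 250 bases before the annotated start of 4 genes are shown because they are among the largest rises and hold letters typical of factors that rose with them, Hnf4a and Gata4. They are RefSeq sequence of the rat assembly GRCr8, 5′ to 3′ on the gene's strand, and capitals mark CAAAGTC, a core spelling of the HNF4 motif, or TGATAAG, one of the GATA motif, on either strand.
Rbp2 (chr8:107963292-107963541, plus strand): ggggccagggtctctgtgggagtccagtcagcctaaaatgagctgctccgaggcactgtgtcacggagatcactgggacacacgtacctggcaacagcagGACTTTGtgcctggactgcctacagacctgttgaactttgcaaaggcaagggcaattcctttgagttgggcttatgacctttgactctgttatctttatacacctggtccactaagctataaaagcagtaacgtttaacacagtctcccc
Pdzk1 (chr2:187064745-187064994, plus strand): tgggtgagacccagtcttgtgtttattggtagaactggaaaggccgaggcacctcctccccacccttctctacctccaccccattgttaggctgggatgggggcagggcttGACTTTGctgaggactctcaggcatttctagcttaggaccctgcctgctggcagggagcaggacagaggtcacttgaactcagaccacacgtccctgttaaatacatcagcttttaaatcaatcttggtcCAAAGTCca
Apoc2 (chr1:88462366-88462615, minus strand): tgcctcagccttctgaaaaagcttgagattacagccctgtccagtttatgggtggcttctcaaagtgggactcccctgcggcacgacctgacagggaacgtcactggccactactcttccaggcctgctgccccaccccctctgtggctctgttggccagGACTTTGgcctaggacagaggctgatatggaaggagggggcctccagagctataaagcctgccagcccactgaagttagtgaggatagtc
Fabp1 (chr4:104749090-104749339, plus strand): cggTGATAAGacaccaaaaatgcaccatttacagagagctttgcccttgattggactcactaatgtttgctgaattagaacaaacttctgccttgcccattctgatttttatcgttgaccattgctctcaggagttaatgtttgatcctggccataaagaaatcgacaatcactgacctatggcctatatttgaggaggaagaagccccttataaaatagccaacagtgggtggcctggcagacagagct
Of the 14217 genes 11700 matched a promoter of this table. CAAAGTC stood in 35 of 474 promoters of genes called at least 4-fold higher (7.38%), in 304 of 9968 of genes not called (3.05%) and in 14 of 687 of genes called lower (2.04%). TGATAAG stood in 19 of the 474 (4.01%), in 107 of the 9968 (1.07%) and in 8 of the 687 (1.16%). In genes called higher by 2- to 4-fold the shares were 3.50% and 1.05%. Over all 27457 genes of the promoter table they were 3.95% and 1.71%. TTTATNG, a CDX spelling whose letters can overlap a TATA box, differed less, at 8.65%, 7.27% and 5.53% of the same 3 sets. Several spellings were looked at with the differences known, so these shares are descriptions, and a match is not a binding site.

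In the list of transcription factors of the intestinal epithelium, 17 of 32 measured genes rose and 0 fell (median difference 1.13, against -0.086 over all genes). The list also holds a signalling ligand, Ihh, which was not called (0.95). Cdx2, the homeobox factor that specifies intestinal epithelium, had lowest, median and highest values of 7.20, 7.84 and 8.42 at E16 and 11.94, 12.11 and 12.41 at E20 (log2 difference 4.31, SE 0.145, limma adjusted p = 5.87e-17). Hnf4a, a nuclear receptor that activates enterocyte genes, lay at 6.97, 7.96 and 8.71 at E16 and 11.95, 12.08 and 12.27 at E20 (log2 difference 4.17, SE 0.157, limma adjusted p = 4.44e-16). Both factors were separated between the ages in every array. Creb3l3, a membrane-bound factor of lipid metabolism (4.67), Elf3 (3.97), Gata4, which marks the proximal intestine (3.37), and Prdm1, a repressor known for holding back adult enterocyte genes in the suckling gut (3.42), rose as well. Cdx1 rose less (1.12), from a dim level, and was 0.97 and not called when 32 intensity units were added before taking logs. Foxa1 (0.01) and Vdr, the vitamin D receptor (-0.34), were dim at both ages and were not called.

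The machinery of the microvillus rose as a whole. All 20 measured genes of microvillus structure were called higher, with a median of 3.61. The list mean was 7.93 to 8.30 at E16 and 11.44 to 11.86 at E20, with no overlap of arrays in 19 of the genes (37.6% over all genes). Besides Pdzk1 these were led by Eps8l3 (6.03), Cdhr5, a protocadherin that links the tips of microvilli (5.51), and Pls1, an actin bundler (5.0). Of 12 brush border peptidases 10 rose (median 3.38), with the meprin subunits Mep1a (6.60) and Mep1b (5.30) and the aminopeptidases Anpep (5.91) and Enpep (3.69). Of 6 apical lipid and phosphate hydrolases 4 rose, among them the intestinal alkaline phosphatase Alpi, at 5.59, 5.98 and 6.66 at E16 and 10.28, 10.78 and 11.48 at E20 (log2 difference 4.85, SE 0.162, limma adjusted p = 4.88e-17). No overlap was seen for Alpi. Sucrase-isomaltase (Si), which rat pups need only at weaning, stayed dim, at 3.53, 4.23 and 6.13 at E16 and 5.37, 5.88 and 6.57 at E20 with overlapping arrays (log2 difference 1.50, SE 0.239, limma adjusted p = 9.70e-06), and it was 0.76 and not called with 32 units added. The lactase gene was not analysed here.

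**Figure D2:**
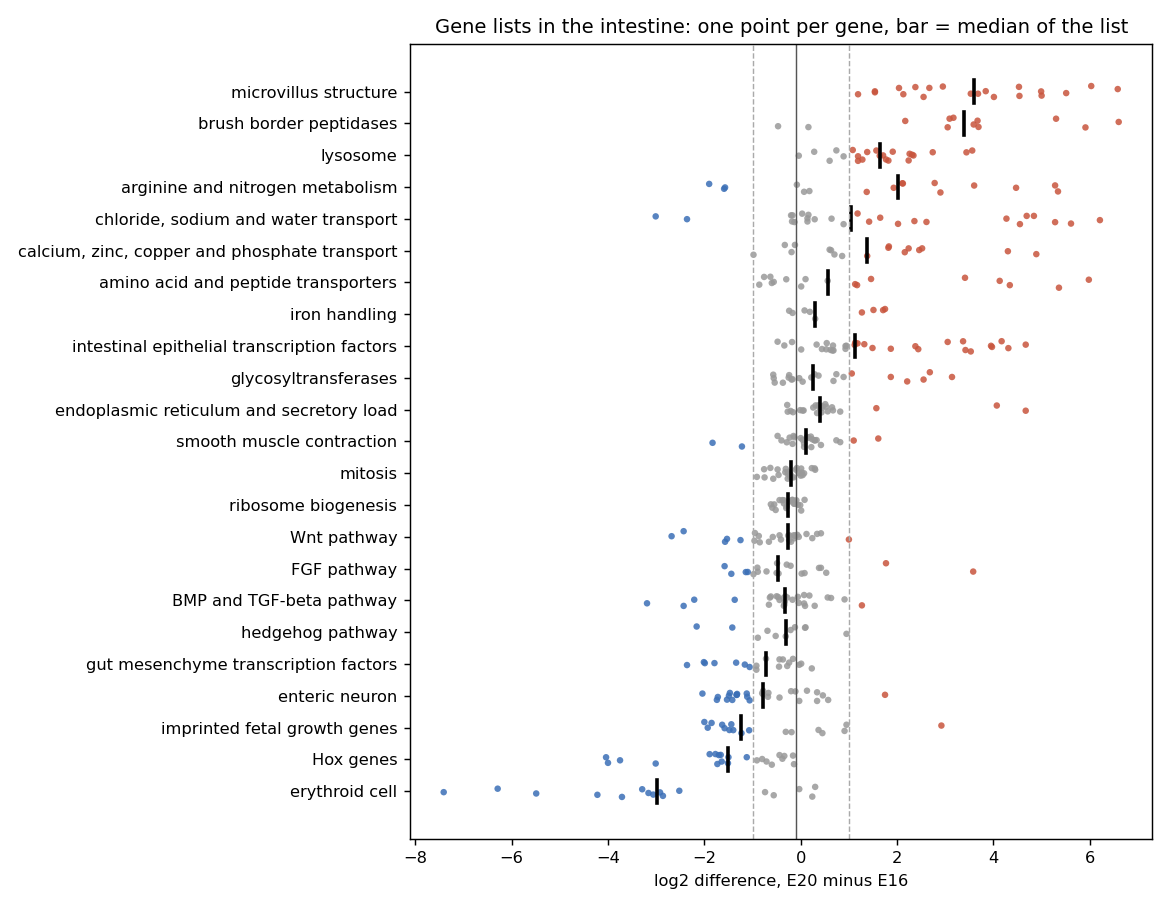
Log2 difference between E20 and E16 (horizontal) for the genes of 23 lists, one point per gene; black bars are list medians, dashed lines mark 1 and -1, the grey line is the median of all genes (-0.086), and red or blue points lie at or beyond the dashed lines. All points of microvillus structure lie to the right of 1, all Hox genes lie below 0, and mitosis and ribosome biogenesis have no point beyond either line.

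Transporters rose unevenly. Of 17 amino acid and peptide transporters 8 rose, led by Slc7a9 (5.98) and its kin Slc7a7 (4.34) and Slc7a8 (4.13). The peptide transporter Slc15a1 lay at 4.76, 5.09 and 5.93 at E16 and 10.13, 10.52 and 10.81 at E20 (log2 difference 5.36, SE 0.114, limma adjusted p = 2.43e-20). Its lowest E20 array was well above its highest E16 array. Of 8 sugar transporters only Slc2a2, the basolateral glucose carrier (5.38), and Slc2a8 (1.38) were called, while the apical glucose transporter Slc5a1 lay at 6.68, 6.87 and 7.15 at E16 and 7.47, 7.81 and 8.21 at E20 with a difference of 0.91 (SE 0.0912). With the E20 arrays numbered 6 to 10 alone, Slc5a1 was 1.12 and called.

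Genes of mineral handling rose in part. Of 9 iron genes 4 rose: the exporter Slc40a1 (1.75), the ferroxidase Heph (1.71), the importer Slc11a2 (1.51) and Slc39a14 (1.27); the last pair lost its calls when all probe sets of a gene were averaged (0.57 and 0.41). Of 17 genes for calcium, zinc, copper and phosphate 9 rose, led by the metallothionein Mt2A (4.89), the phosphate transporter Slc34a2 (4.30), Slc30a10 (2.52) and the calcium-binding S100g (2.46).

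Of 24 genes of vitamin uptake and retinoid handling 5 rose and 7 fell. The risers were Rbp2, the ascorbate transporter Slc23a1 (4.69), Tcn2, which carries vitamin B12 (1.51), the thiamine transporter Slc19a2 (1.28) and the biotin transporter Slc5a6 (1.11). The genes that fell all make, bind, sense or clear retinoic acid or take up retinol. Crabp2, which binds retinoic acid in the cytoplasm, lay at 10.20, 10.42 and 10.66 at E16 and 7.08, 7.46 and 8.27 at E20 (log2 difference -2.96, SE 0.117, limma adjusted p = 1.08e-15), with no overlap. The receptor Rarb (-2.60), the retinol-uptake receptor Stra6 (-2.08), the synthesising enzymes Aldh1a1 (-1.69) and Aldh1a2 (-1.52), Crabp1 (-1.20) and the clearing enzyme Cyp26a1 (-1.01) fell as well. The receptors Rara (-0.11), Rarg (-0.35) and Rxra (0.08) were not called.

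Of 26 genes of chloride, sodium and water transport 13 rose and 2 fell. Guca2a, the peptide guanylin that stimulates chloride secretion, lay at 5.92, 6.53 and 7.06 at E16 and 12.14, 12.78 and 13.11 at E20 (log2 difference 6.21, SE 0.141, limma adjusted p = 6.63e-20), and Guca2b, uroguanylin, rose by 4.84. All E20 arrays of Guca2a were above all E16 arrays. Clca4 (5.61), the chloride-bicarbonate exchanger Slc26a3 (5.28) and the water channel Aqp8 (4.55) rose too. The carbonic anhydrases Car1 (-3.01) and Car2 (-2.36), which are also abundant in red cells, fell beside the fall of the erythroid list given further on, whose part was not tested.

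Lysosomal genes rose from an already bright level: 18 of 23 were called higher and 0 lower (median 1.64). Glb1, the lysosomal beta-galactosidase that also cleaves lactose, lay at 9.31, 9.56 and 9.82 at E16 and 12.89, 13.07 and 13.25 at E20 (log2 difference 3.56, SE 0.0676, limma adjusted p = 4.30e-21). The arrays of Glb1 did not overlap. The cathepsins Ctsc (3.44) and Ctsa (2.74) followed, and Ctss, a cathepsin of antigen-presenting cells, rose by 2.34. Of 12 genes of macromolecule uptake only 2 were called, Amn, the membrane anchor of cubilin (5.39), and Fcgrt, the Fc receptor that carries maternal antibody from milk (1.17, or 0.88 and not called with the E20 arrays numbered 1 to 5 alone). Cubn itself, the cubilin receptor, had a difference of 0.97 (SE 0.159) and missed the fold minimum, which it passed without any one of E16 replicates 7 (1.01), 8 (1.0) and 10 (1.02) and E20 replicates 1 and 2 (1.03 each).

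Metabolic genes also moved by pathway. Of 16 genes of arginine and nitrogen metabolism 10 rose and 3 fell. The neonatal gut makes citrulline and arginine, and the enzymes of that route rose: Otc, which makes citrulline, lay at 5.98, 6.77 and 8.35 at E16 and 11.77, 12.23 and 12.41 at E20 (log2 difference 5.34, SE 0.217, limma adjusted p = 1.74e-15), with one E16 array above the rest of its group but no overlap between ages. Ass1 (5.28), Cps1 (4.47) and Nags (3.60), which act before and after Otc, rose as well. The falls were in Arg2, an arginase (-1.90), and in the glutamine and asparagine synthetases Glul (-1.59) and Asns (-1.57). Of 8 genes of gluconeogenesis and fructose use 6 rose, with Pck1, its rate-limiting enzyme, at 5.90, Fbp1 at 3.02 and Tkfc at 2.98.

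Glycolysis genes went both ways: of 17, Pfkp (1.95) and Gpi (1.03; 0.95 and not called with quantile normalization) rose, Ldhb (-1.62) and Pfkm (-1.26) fell, and Aldoa had a difference of 0.44. Of 21 fat absorption genes 15 rose and 1 fell, and of 9 bile acid genes 3 rose, among them the bile acid receptor Nr1h4 (2.38). Of 20 genes of peroxisomes and fatty acid oxidation 10 rose, led by the ketone body enzyme Bdh1 (3.54). Sterol and fatty acid synthesis had 4 of 21 higher, with the regulator Srebf1 at 1.64. Among 27 antioxidant and glutathione genes 7 rose, with the glutathione transferase Gsta3 at 5.39, the gastrointestinal peroxidase Gpx2 at 3.90 and Mgst1 at 3.49. In the same list 2 fell, among them Gclm, the modifier subunit of glutathione synthesis (-1.94).

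Secretory and surface genes rose in part. Goblet cell markers rose in 9 of 11 cases, with Clca1 the largest, the mucin Muc13 at 5.57 and the lectin Zg16 at 5.55, and enteroendocrine markers in 8 of 20, with the hormone genes Sct (4.84), Gcg (4.29) and Nts (3.35). Of 24 endoplasmic reticulum genes 3 rose, a share near the 8.86% of all genes called higher. They were Creb3l3, Agr2, a disulfide isomerase of mucin-secreting cells (4.07), and the chaperone Dnajc3 (1.57). Of 22 glycosyltransferases 6 rose, including St6gal1, which adds sialic acid (3.14), and Gcnt3, which branches mucin sugars (2.68). Of 28 genes of epithelial junctions and adhesion 20 rose, with the cadherin Cdh17 at 5.71 and the claudin Cldn2 at 5.24. Paneth cell markers, of a cell type that appears after birth in rats, were 0 of 6 higher and 1 lower (Pla2g2a, -1.24). Of 7 tuft cell markers the one called was Dclk1, lower by 2.23 on the log2 scale and -0.84 with its probe sets averaged.

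Some genes of defence and antigen presentation rose. Mucosal defence had 7 of 24 genes higher, led by Dmbt1, a secreted scavenger receptor (4.54), the cytokine Il18 (2.63) and the lectin Reg3b (2.59), and 1 lower, Pla2g2a. Antigen presentation and interferon genes had 16 of 33 higher, led by the immunoproteasome subunits Psmb8 (4.80) and Psmb9 (4.24), and 2 lower. Macrophage markers rose in 3 of 15 cases, lymphocyte markers in 2 of 15, and mast cell and granulocyte markers in 2 of 10, with the mast cell protease Mcpt1 at 2.49. Over all genes 8.86% were called higher. The lymphocyte list mean was 7.38 to 7.63 at E16 and 7.62 to 7.98 at E20.

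**Figure D3:**
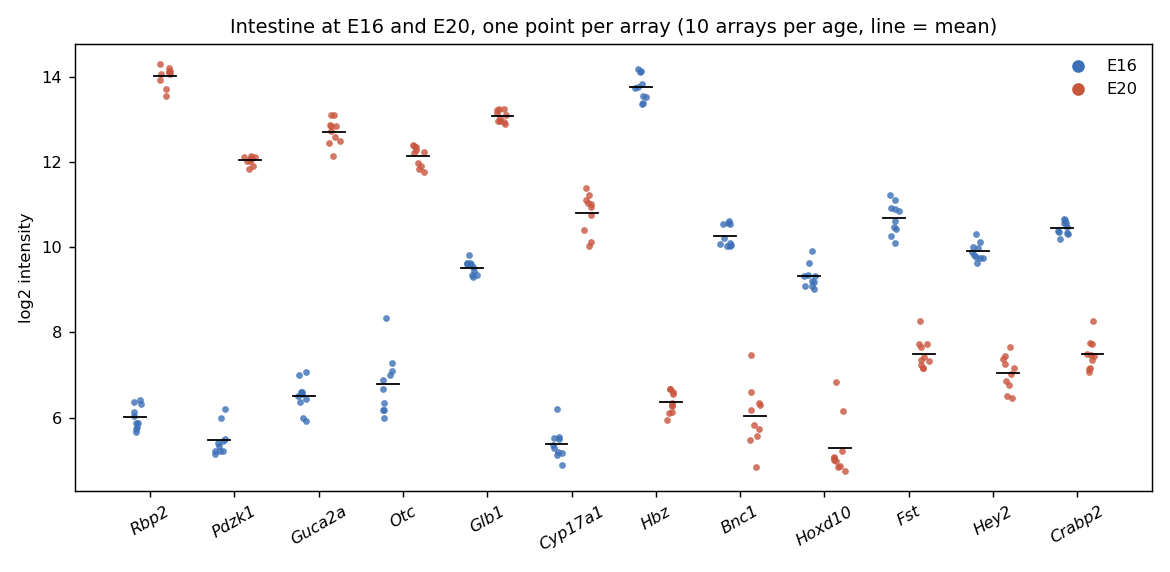
Log2 intensity (vertical) of 12 genes in each of the 20 intestine arrays, one point per array, blue for E16 and red for E20, with black lines at the group means. In each of these genes all points of one age lie above all points of the other, as in most called genes. The points of Bnc1 and Hoxd10 spread most at E20.

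Hox genes, the homeobox genes that give position along the body, were lower in 13 of 22 measured cases and higher in 0 (median -1.51). The difference was below 0 in all 22, and it stayed so in the alternative fits run, of which the one with bright probe sets only held 17 of them. The largest falls were in Hoxd10, Hoxa10, Hoxd1 and Hoxa9. Hoxd10 lay at 9.02, 9.26 and 9.92 at E16 and 4.75, 5.03 and 6.84 at E20 (log2 difference -4.04, SE 0.214, limma adjusted p = 2.04e-13). Its E20 arrays were all below its E16 arrays. Hoxa10 lay at 9.47, 9.70 and 10.09 at E16 and 4.86, 5.46 and 7.50 at E20 (log2 difference -4.0, SE 0.245, limma adjusted p = 2.51e-12), also without overlap. Hoxd1 (-3.75) and Hoxa9 (-3.01) followed. The measured Hoxb genes of groups 2 to 7 fell by similar amounts, from -1.50 for Hoxb4 to -1.77 for Hoxb2, with Hoxb3 at -1.64, Hoxb6 at -1.70 and Hoxb7 at -1.66. Falls were also called in Hoxd3 (-1.89), Hoxc9 (-1.73), Hoxc5 (-1.51) and Hoxd8 (-1.12). The neighbours of Hoxd10 and Hoxa10 on the 5′ side of their clusters were not called: Hoxd11 had a difference of -0.16 (SE 0.0797), from 8.21 to 8.05, and Hoxa11 one of -0.34 (SE 0.0829), from 8.66 to 8.31. Hoxa5 (-0.91), Hoxa7 (-0.38), Hoxc8 (-0.44), Hoxc4 (-0.60), Hoxd9 (-0.71), Hoxd4 (-0.80) and Hoxb13 (-0.14) were not called.

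**Figure D4:**
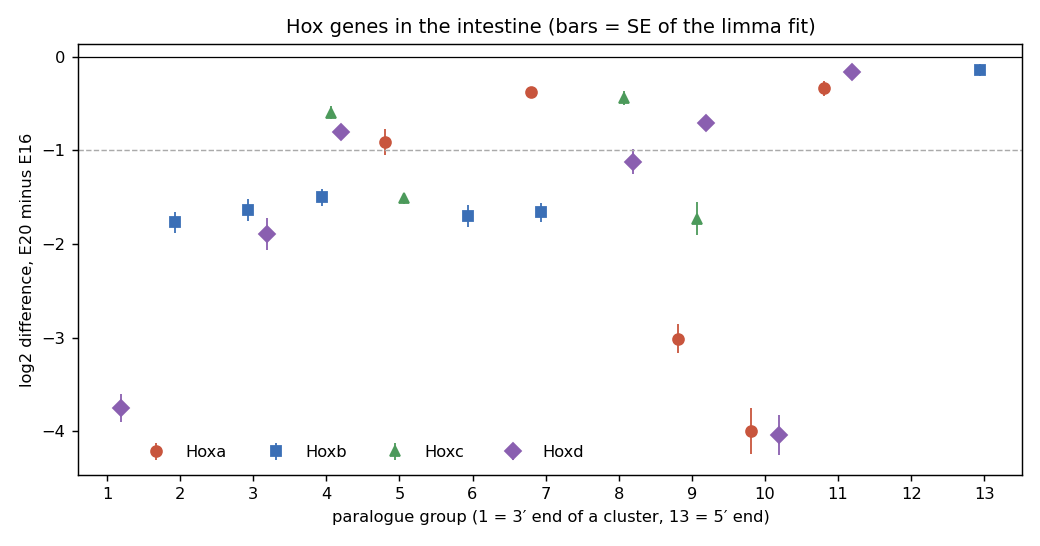
Log2 difference between E20 and E16 (vertical) of 22 Hox genes by paralogue group (horizontal, 1 to 13), one symbol per cluster, with bars for the SE of the limma fit; the dashed line marks -1. All symbols lie below 0, Hoxd1, Hoxa9, Hoxa10 and Hoxd10 lie at or below -3, and Hoxa7, Hoxc8, Hoxa11, Hoxd11 and Hoxb13 lie above -0.5.

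Factors and signals of the gut mesenchyme fell in part. Of 19 mesenchymal transcription factors 7 fell and 0 rose, led by the Hox cofactors Meis2 (-2.36) and Meis1 (-1.79), Hand2 (-2.01) and Twist1 (-1.99), and the cofactor Pbx3 fell by 1.06. In the hedgehog pathway, by which the epithelium signals to the mesenchyme, the ligands Shh (0.09) and Ihh (0.95) were not called, while the co-receptor Boc (-2.16) and the transducer Smo (-1.42) fell. The targets Gli1 (-0.69) and Hhip (0.10) missed the call. In all, 2 of the 11 pathway genes were called lower and 0 higher. Ihh was called when arrays were centred (1.0) or with the E20 arrays numbered 6 to 10 alone (1.11).

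In the BMP and TGF-beta pathway 4 of 28 genes fell and 1 rose, against 6.20% and 8.86% of all genes. Fst, follistatin, which traps activin and BMP ligands, lay at 10.09, 10.74 and 11.23 at E16 and 7.17, 7.39 and 8.26 at E20 (log2 difference -3.19, SE 0.15, limma adjusted p = 2.51e-14), with no overlap. The ligands Tgfb3 (-2.43) and Tgfb2 (-2.21) fell while Tgfb1 (0.07) was not called, Bmp2 rose (1.27), and the target Id3 fell (-1.37). In the Wnt pathway 5 of 27 fell and 1 rose, Frzb, which stood at the fold minimum (1.0) and lost its call in most refits that left out an array. The secreted inhibitors Dkk2 (-2.68), Sfrp2 (-2.43) and Sfrp1 (-1.53) and the receptor Fzd2 (-1.57) fell most, and the target Axin2 was not called (-0.66).

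In the FGF pathway 4 of 20 genes fell, including the ligands Fgf18 (-1.58) and Fgf9 (-1.44) and the feedback inhibitor Spry1 (-1.10), and Fgfbp1, a secreted FGF carrier (3.58), and the receptor Fgfr3 (1.77) rose. In the Notch pathway the target Hey2 lay at 9.64, 9.85 and 10.31 at E16 and 6.46, 7.10 and 7.65 at E20 (log2 difference -2.85, SE 0.134, limma adjusted p = 2.42e-14). Hey2 did not overlap between the ages, whereas Hes1 (0.27), Hey1 (0.01) and the receptors Notch1 (0.42) and Notch2 (-0.08) were not called. Of the 21 genes 2 rose and 2 fell, near the shares of all genes (8.86% and 6.20%), and the other faller was Dlk1.

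Among imprinted genes, which are expressed from one parental copy and often act on fetal growth, 10 of 17 fell and 1 rose. Dlk1 (-2.0), Zdbf2 (-1.93), Ndn (-1.85), Meg3 (-1.63), Grb10 (-1.58), Plagl1 (-1.44) and Mest (-1.40) were among those that fell. Phlda2, a growth-limiting gene of the placenta, rose by 2.92. The growth factor Igf2 remained among the brightest genes, at 13.42, 13.72 and 14.15 at E16 and 13.88, 14.21 and 14.54 at E20 (log2 difference 0.45, SE 0.104, limma adjusted p = 6.17e-04), and the RNA of its neighbour H19 had a difference of 0.95, both under the fold minimum. Of 21 fetal RNA-binding and chromatin genes 3 fell, including Sox11 (-2.29), and 1 rose, while Igf2bp1 (-0.23) and Hmga2 (-0.32) were not called. Over all genes 6.20% fell and 8.86% rose.

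Few proliferation genes passed the fold minimum. Of 31 DNA replication genes 1 was called lower (Gins1, -1.11), although all 31 had differences below 0 (median -0.55). The sign held in the alternative fits run (30 of the genes with bright probe sets only). The arrays of the ages did not overlap in 24 of the 31, against 37.6% of all genes. Of 27 mitosis genes limma called none (median -0.21, against -0.086 over all genes; at an unadjusted p under 0.05 and without a fold minimum 2 were higher and 15 lower), and Mki67, a marker of cycling cells, had a difference of 0.29 (SE 0.0562). None of 21 ribosome biogenesis genes was called by limma either (0 higher and 15 lower at an unadjusted p under 0.05). Of 16 cell cycle inhibitors 2 rose, Cdkn1a (1.33) and Rb1 (1.16), and Cdkn2d fell (-1.23). Of 12 crypt and progenitor genes Lgr5, the receptor of crypt base stem cells (1.80), and Hopx (2.53) rose and Smoc2 fell (-1.52).

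Smooth muscle genes moved both ways. Of 26 such genes 2 rose and 2 fell (median 0.10), a share near the 15.1% of all genes called in either direction. Acta2 lay at 12.17, 12.41 and 12.86 at E16 and 12.15, 12.56 and 12.88 at E20 (difference 0.07, SE 0.0897). Myh11, a myosin of mature smooth muscle, had a difference of 0.82. The coactivator Myocd (-1.22) and the integrin Itga8 (-1.83) fell, and Hspb1 (1.61) and Pln, which restrains the calcium pump (1.10), rose. Among 6 markers of the pacemaker cells of Cajal the factor Etv1 fell (-1.59) and the receptor Kit was not called (-0.34).

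Of 28 enteric neuron genes 22 had differences below 0 and 6 above, and 13 genes were called lower. They included the neurite growth genes Stmn2 (-2.04) and Gap43 (-1.49), the tubulin Tubb3 (-1.74), the enkephalin precursor Penk (-1.72) and Ret, the receptor that enteric neuron precursors need (-1.06; -0.99 and not called without E16 replicate 1 or without E20 replicate 8). The transmitter peptide Vip instead rose, and lay at 7.09, 7.64 and 8.0 at E16 and 8.75, 9.40 and 9.96 at E20 (log2 difference 1.75, SE 0.144, limma adjusted p = 4.22e-10), while the synaptic genes Snap25 (0.34) and Syt1 (0.46) and the neuronal nitric oxide synthase Nos1 (0.13) were not called. Of 11 glial and neural crest genes 3 fell, among them the co-receptor Gfra1 (-2.26) and Sox10 (-1.33).

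Matrix genes differed singly. Of 35 collagen and fibroblast matrix genes 2 rose, dermatopontin, Dpt (3.16), and tenascin, Tnc (1.29), and 6 fell, including Vcan (-1.93), while Col1a1 was not called (-0.32). Of 21 basement membrane genes the epithelial integrin Itgb4 rose most (3.34) and Col4a6 fell most (-1.89), in all 2 higher and 3 lower. None of 13 vessel endothelium markers was called by limma (6 higher and 2 lower at an unadjusted p under 0.05). Among 6 lymphatic markers Ccl21 rose (1.91) and Pdpn fell (-1.41), and among 6 pericyte markers Rgs5 rose (1.05; 1.0 and not called without E16 replicate 5) and Kcnj8 fell (-1.30).

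Most erythroid markers fell, and mesothelial markers moved both ways. Of 16 erythroid genes 11 fell and none rose, and the summed intensity of the list was 94719 to 140734 units at E16 and 24728 to 40992 at E20. The embryonic globin Hbz lay at 13.36, 13.76 and 14.20 at E16 and 5.94, 6.32 and 6.68 at E20 (log2 difference -7.41, SE 0.12, limma adjusted p = 3.17e-22), with no overlap, whereas the adult globin Hbb was not called (-0.56). The factors Nfe2 (-3.86) and Klf1 (-2.52), the Rh proteins Rhd (-3.42) and Rhag (-3.06), and Tent5c (-3.47) fell as well. Of 7 mesothelial markers 3 fell and 2 rose. Bnc1, a zinc-finger protein, lay at 10.02, 10.15 and 10.61 at E16 and 4.84, 6.0 and 7.46 at E20 (log2 difference -4.25, SE 0.223, limma adjusted p = 1.70e-13), and Wt1, a factor of mesothelium and its derivatives, fell by 2.44 on the log2 scale. The rise of Krt19 (1.48) is of a keratin that gut epithelium also makes. The list mean was 9.59 to 10.05 at E16 and 8.43 to 9.53 at E20, with E20 replicate 3 highest of its group.

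Brightness differed among the markers of neighbouring organs. Both group means lay below the median of all log2 values in 16 of 18 pancreas, 7 of 16 liver and 2 of 8 cartilage markers. Of 16 liver markers 5 rose, and the list mean was 6.50 to 8.80 at E16, where replicate 9 alone exceeded 7.14, and 7.89 to 9.12 at E20. Fga (5.10), Fgb (4.38), F2 (3.11), Afp (2.98) and Serpina1 (2.90) were the genes called, while Ttr (-0.38), Ahsg (0.49), Apoh (-0.35) and Hpx (-0.05), which liver also makes, were not, and Alb spread from 5.71 to 11.77 over the E20 arrays. Over the 16 liver markers, 13 differences were above 0 and 3 below (median 0.57). Of 18 pancreas markers Cela1 rose (2.50) and 3 fell, Amy2a3 (-2.37), Cpa1 (-1.94) and Pnliprp1 (-1.62), and their list mean was 6.16 to 7.78 at E16, highest in replicates 6, 8 and 9, and 6.30 to 6.55 at E20. Without E16 replicates 6, 8 and 9 and E20 replicate 9 Amy2a3 (-0.68) and Pnliprp1 (-0.40) lost their calls and the counts over all genes were 1294 higher and 868 lower; Pnliprp1 also lost its call without any one of E16 replicates 6 (-1.29), 8 (-1.34) or 9 (-1.24). The part of such tissue in the other lists was not tested.

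Of 8 cartilage genes 4 fell, led by Col2a1 (-2.57) and Cnmd (-2.47), with a list mean of 7.88 to 8.38 at E16 and 6.80 to 7.09 at E20. None of 14 stomach and oesophagus markers and none of 5 islet markers was called by limma; at an unadjusted p under 0.05 these had 1 higher and 4 lower, and 2 higher and 2 lower. Of 12 skeletal muscle markers Myh3 fell (-1.19), and of 9 lung markers Hopx rose, which is also in the crypt list.

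The E20 arrays did not form 1 even group. The 5 arrays numbered 1 to 5 and the 5 numbered 6 to 10 did not overlap in the mean of 26 of the 67 lists, 19 higher and 7 lower in those numbered 6 to 10. At E16 the same numbers did not overlap in 0 of the 67 lists. Over single genes, 1044 (7.34%) were higher and 1174 (8.26%) lower in E20 arrays 6 to 10 without overlap, against 92 (0.647%) and 30 (0.211%) at E16. The enterocyte list was 11.79 to 12.19 in E20 arrays 1 to 5 and 12.32 to 12.46 in 6 to 10, against 7.02 to 7.83 at E16. The lysosome list was 11.37 to 11.48 and 11.68 to 11.77, and the mitosis list 10.5 to 10.56 and 10.18 to 10.40. Of the 1259 genes called higher at E20, 297 were higher still in arrays 6 to 10 and 18 lower, and of the 881 called lower, 185 were lower still and 6 higher. The 7 lists that were lower in arrays 6 to 10 were DNA replication, mitosis, ribosome biogenesis, sterol and fatty acid synthesis, FGF, fetal RNA-binding genes and cells of Cajal. The 19 that were higher included the lists of peptidases, microvillus structure, sugar transport and fat absorption, and also the dim lists of stomach, skeletal muscle, islet, and kidney and gonad. The actin difference between transcript ends was -2.06 to -1.49 in E20 arrays 1 to 5 and -1.60 to -1.32 in 6 to 10, and its part was not tested. The labels do not say what the numbers mark, and no batch, litter or exact age is given for them. With arrays 6 to 10 alone against all E16 arrays, 5 DNA replication genes and 1 mitosis gene were lower.

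**Figure D5:**
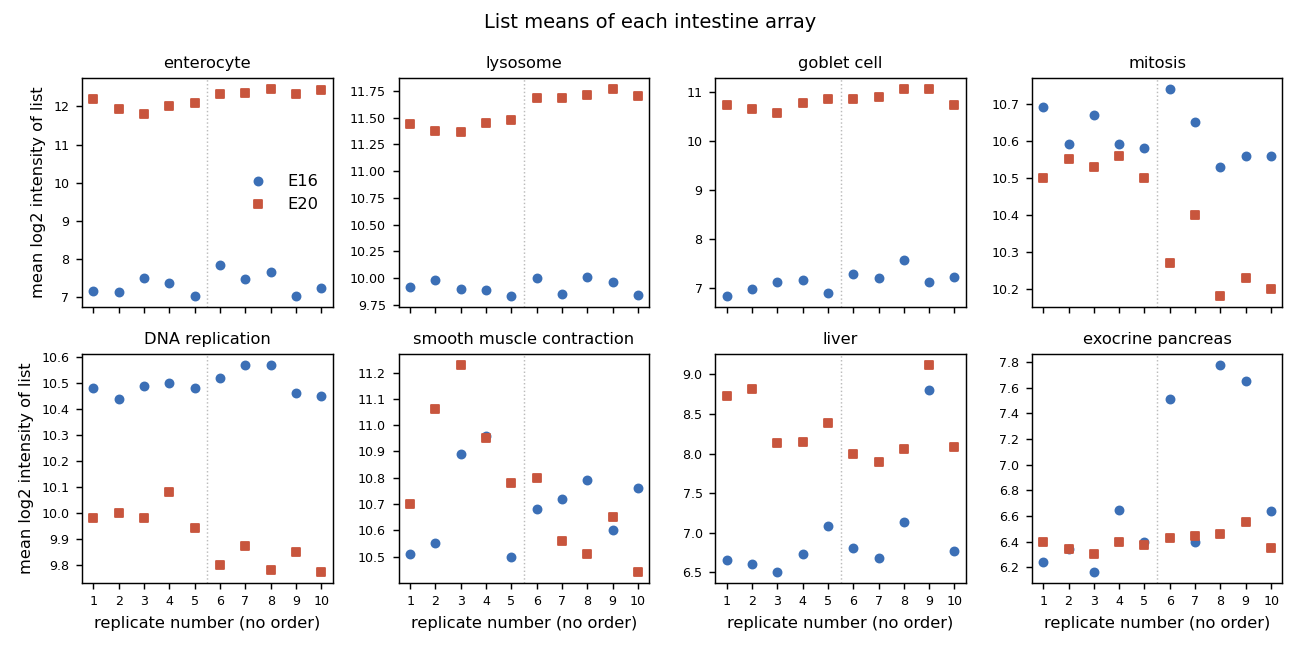
Mean log2 intensity (vertical, own scale in each panel) of 8 gene lists in each array, by replicate number (horizontal; the numbers are names without order), with blue circles for E16, red squares for E20 and a dotted line between numbers 5 and 6. The enterocyte and lysosome squares right of the line lie above those left of it and the mitosis and DNA replication squares below; the liver circle of E16 replicate 9 and the pancreas circles of E16 replicates 6, 8 and 9 stand above their groups.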

How the data were processed

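The arrays of whole intestine at gestational days 16 and 20 were grouped by their labels, 10 at each age. The deposited table gives linear intensity values for 31099 probe sets, which the authors made with RMA (background correction, normalization between arrays and summary of probes), per the submitters' processing notes, with no version given. RMA evens out array distributions, so a change shared by most transcripts would not be seen. Log2 was taken here. limma 3.58.1 in R 4.3.3 was fitted without covariates to the 20 intestine arrays over 31042 probe sets (57 control probe sets left out), two-sided, with Benjamini-Hochberg adjustment over all of them. The test was checked on simulated data. Array number, not depth, limits the precision.

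Symbols came from the platform annotation, updated through Entrez identifiers, of which 20758 of 20826 were found in a GRCr8 table; 436 further probe sets carried several symbols and 9780 none. A gene was represented by its brightest probe set over the 20 arrays. Of 4525 genes with more than 1 probe set, 752 had some called and others not. The 67 gene lists named 1268 entries, of which 1099 were measured. Genes named in the text were the 15 largest rises and falls (called, brighter mean above the median of all log2 values, arrays not overlapping, no cross-hybridising suffix), up to 4 called members of a list by size, a set of anchor genes and all Hox genes; other members are given for context and were chosen after their values were seen. The members and lists were chosen with earlier results of these data known. Alternatives were median centring, quantile normalization, bright probe sets only, an added 32 units, all 40 arrays of the series in the fit, array weights, a replicate block, averaged probe sets and left-out arrays.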

Additional observations from a re-analysis of the deposited data

Results flagged for a closer look

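Single arrays stood apart from the other 9 of their group in 27 of 496 pairs of a named gene and a group, and in 9 of 134 pairs of a list mean and a group. The test was Dixon's ratio of the gap to the nearest other array over the range of the group, at its 95% critical value, which chance passes in about 1 of 20 groups. Values are log2 intensities, and "against" gives the nearest other array of that group. The explanations of these values were not tested.

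E16 replicate 8, the array with the low correlation and the steep actin gradient, held 11 of the 27 gene values. It was high in Lrrc19 (6.23 against 5.03), Hsd17b6 (6.07 against 5.05), Cdhr5 (7.49 against 7.04), Slc7a9 (6.33 against 5.63), Slc15a1 (5.93 against 5.22), Clca4 (5.97 against 5.20), Cd163 (6.57 against 5.82) and Cyp17a1 (6.21 against 5.55). It was low in Id3 (10.82 against 11.42), Dkk2 (7.03 against 7.75) and Dnmt3a (8.17 against 8.76). Its list means were high for disaccharidases (6.51 against 5.78), apical lipid and phosphate hydrolases (6.89 against 6.51), amino acid and peptide transporters (8.47 against 8.23) and enteroendocrine markers (7.35 against 7.09). All 8 of the genes in which it was high were called higher at E20, and the 3 in which it was low were called lower. Of the 248 named genes 224 were called, most of them chosen for it, so a call in a flagged gene says little.

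E16 replicate 9 was high in Apoa1 (9.45 against 6.70), Apoc2 (8.35 against 7.05), Fga (7.50 against 5.84) and Fgb (8.32 against 5.86), genes that liver also makes, and in the mean of the liver list (8.80 against 7.14).

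The other E16 values were a high Hoxa10 in replicate 1 (10.09 against 9.78), a high Cyp51 in replicate 6 (11.6 against 11.41), a low Krt19 in replicate 10 (10.31 against 10.78) and a low Notch list mean in replicate 7 (8.75 against 8.80). At E20, Hsd17b6 was low in replicate 5 (10.44 against 11.09), Nfe2 high in replicate 2 (6.5 against 5.73) and Nt5e low in replicate 9 (6.24 against 6.65). Gsta3 was high in replicate 1 (11.8 against 11.44) and Hoxa7 low there (8.01 against 8.21). Fst was high in replicate 3 (8.26 against 7.73), Zdbf2 low in replicate 10 (5.72 against 6.31), Pnliprp1 high in replicate 9 (5.83 against 5.48) and Col2a1 low in replicate 8 (5.73 against 6.12). Among E20 list means, Notch was low in replicate 1 (8.61 against 8.68), mesothelium high in replicate 3 (9.53 against 8.90) and erythroid high in replicate 2 (9.04 against 8.64). Of these, Fst fell by 3.19 and Zdbf2 by 1.93 on the log2 scale between the ages with these arrays included.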

How the results depend on the processing

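The counts of genes and probe sets higher and lower at E20 stayed within 1.5 times under every alternative run: 1047 to 1348 genes were higher and 679 to 1096 lower, and without a single array 1248 to 1285 and 842 to 918. The share of higher calls moved by under 10 percentage points. Of 248 named genes 213 kept their call in all alternatives that held them, 35 changed it in at least 1 and none reversed direction. The fit with bright probe sets only left out the dim named genes and so did not test them. The replicate numbers did not pair the arrays: same-numbered arrays correlated at -0.249 to 0.177 over 10 pairs, 4 above 0.1, and 2 of 10 matched their own number best. The replicate block left 1259 genes higher and 881 lower and changed no named call.

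List counts that moved by over 1.5 times are given with their new value, and the cause was not tested unless fewer genes entered the fit. With bright probe sets only, which tests fewer genes, the counts higher were disaccharidases 0, vitamin and retinoid 3, crypt 1, Wnt 0, Notch 1 and liver 3, and those lower were Hox 8, Wnt 3, FGF 2, antigen presentation 1, and 0 for mucosal defence, Paneth, pancreas, skeletal muscle and cartilage. With 32 units added they were disaccharidases 0, fat absorption lower 0, Wnt higher 0, Notch higher 1, lymphocyte 1, mast cell 1 and pericyte 0. With probe sets averaged they were iron 2, glycolysis lower 1, sterol 1, Wnt higher 0, Notch higher 0, cell cycle inhibitors 1, smooth muscle higher 1, basement membrane higher 1, tuft lower 0, lymphocyte 1 and stomach lower 1. Array weights gave fat absorption lower 0, Wnt higher 0, antigen presentation lower 1, lymphocyte 1 and mast cell 1. Centring gave fat absorption lower 0 and hedgehog higher 1, and quantile normalization gave glycolysis higher 1.

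The next alternatives were added after the data were seen. With E20 arrays 1 to 5 alone, macromolecule uptake was 1, fat absorption lower 0, smooth muscle lower 1, antigen presentation lower 1, lymphocyte 1 and pancreas lower 1. With E20 arrays 6 to 10 alone, 1 gene was lower for amino acids, minerals, antigen presentation, mitosis and pancreas, 5 for DNA replication and 0 for skeletal muscle, and the counts higher were macromolecule uptake 4, hedgehog 1, Wnt 0, smooth muscle 1, mast cell 1 and pericyte 0.

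Leaving out each of the 20 arrays in turn changed 33 of 134 list counts by at least 1 gene and 10 by over 1.5 times. Of these 10, calls were lost for fat absorption lower (1 to 0, without any of 9 arrays), Wnt higher (1 to 0, 13 arrays), Notch higher (2 to 1, 2 arrays), antigen presentation lower (2 to 1, 4 arrays), lymphocyte higher (2 to 1, 3 arrays), mast cell higher (2 to 1, 9 arrays) and pericyte higher (1 to 0, without E16 replicate 5). Calls were gained for minerals lower (0 to 1, 3 arrays), DNA replication lower (1 to 2, without E20 replicate 4) and lymphatic higher (1 to 2, 3 arrays). Frzb and Cd36 are the genes of the Wnt and fat absorption counts. Dim genes limit the sizes: 619 of the 1259 risers had an E16 mean below the median of all log2 values. Of the 881 fallers 353 had an E20 mean below it. The log2 differences of these genes depend on the background.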

Other observations

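A few genes moved apart from the rest of the marker list that holds them. Cyp17a1, a steroid hydroxylase best known in gonad and adrenal, lay at 4.88, 5.32 and 6.21 at E16 and 10.04, 10.98 and 11.40 at E20 (log2 difference 5.43, SE 0.172, limma adjusted p = 2.11e-17), while the other steroid genes of its list, Star (-0.18), Cyp11a1 (-0.22) and Hsd3b1 (0.20), were not called, and it was 1 of 10 kidney and gonad markers that rose. Cela1, an elastase of the pancreas list, rose by 2.50 while Cela2a (-0.27) and Cela3b (-0.21) were dim at both ages. Cd3g, a subunit of the T cell receptor complex, lay at 7.21, 7.50 and 7.85 at E16 and 10.32, 10.44 and 10.78 at E20 (log2 difference 2.97, SE 0.0757, limma adjusted p = 4.19e-19), whereas the subunits Cd3e (0.49), Cd3d (0.11) and Cd247 (-0.15) of the same complex were not called. The arrays of Cyp17a1 and Cd3g did not overlap between the ages.

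Mfsd12, a transporter of lysosomes and melanosomes, had probe sets called in opposite directions, with differences of -1.15 and 1.73; it was the only such gene of the 4525 with more than 1 probe set. Several of the largest falls were in genes outside the lists: Nrg2, a neuregulin (-3.50), Myo5c, an unconventional myosin (-3.37), and Tmcc2 (-3.23). At E16 Myo5c was lowest in replicate 6 (9.89) and highest in replicate 5 (11.51), as was the erythroid list mean (10.83 and 11.83). Gclm of the antioxidant list had the same lowest and highest arrays, while Nrg2 and Tmcc2 were highest in other arrays. The part of red cells in these falls was not tested. Of the 10216 probe sets with no or several symbols, 400 were called higher (3.92%) and 485 lower (4.75%).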
